A study of Rattus norvegicus with 16 samples.

Results

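The genes described here encode the proteins that stand directly behind inhibitory G protein-coupled receptors, among them the opioid receptors on which fentanyl, a synthetic opioid, acts. They were chosen by name, with earlier results of these data known. They comprise 10 genes of the 33294 in the table of read counts: 4 alpha subunits of the inhibitory class of G proteins (Gnai1, Gnai2, Gnao1 and Gnaz), 4 G protein-coupled receptor kinases (Grk2, Grk3, Grk5 and Grk6) and the beta-arrestins Arrb1 and Arrb2. All 10 passed the filter on low counts and are among the 17856 genes tested. Poly(A) RNA was sequenced from tissue labelled central amygdala of adult rats that had been exposed perinatally to fentanyl or, as controls, to saline, with 6 males and 2 females per exposure. Tissue was collected on day 1 after the final session of a procedure that the design text abbreviates as IVSA, and no difference in it between the groups is stated. The sources used here do not give the dose, route, strain, exact age or any genotype. They do not state which animals were littermates either, so p-values rest on the spread among these animals alone, whatever litters they shared.

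An activated receptor makes its G protein exchange GDP for GTP, whereupon the alpha subunit and the beta-gamma dimer separate. Alpha subunits of the Gi family inhibit adenylyl cyclases, and the beta-gamma dimers they release open inwardly rectifying potassium channels and inhibit calcium channels. G protein-coupled receptor kinases phosphorylate the active receptor, and beta-arrestins then bind it, end its coupling to the G protein and link it to clathrin-coated pits. In neurons this sequence underlies desensitization and internalization of opioid receptors.

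Total counts were between 12879701 and 22426428 per library, and mitochondrially encoded genes took 8.44% to 17.7% of them. Fentanyl male replicate 2 had the highest mitochondrial share, and saline male replicate 3 the lowest share and the highest total. Markers of central amygdala neurons were counted in every library, some of them at low levels. Sst, somatostatin, lay between 41.4 and 206 CPM (counts of a gene relative to its library's total, which edgeR scales by a TMM factor). Prkcd, protein kinase C delta, lay between 11.2 and 33.3 CPM. Crh ran from 0.521 to 17.2 CPM and Cartpt from 1.07 to 68.9 CPM. Markers of striatal medium spiny neurons, which a dissection next to the striatum can hold, varied widely: the summed level of 21 such genes ran from 3024 to 14578 CPM, with a median of 8229 CPM after fentanyl and 5761 CPM after saline. The saline males fall into library numbers 1 and 2 (replicates 1 and 2) and 9 to 12 (replicates 3 to 6) by the names in the labels, and the 2 sets differed in 3201 of 17856 genes (17.9%), so the members are given by set as well. That count was 193 (1.09%) without saline male replicate 2, 1235 (6.92%) without replicate 1 and 1894 (10.7%) without replicate 6. The fentanyl males are numbered 1 to 6, the fentanyl females 1 and 2 and the saline females 10 and 11. No fentanyl library thus has a number above 6, and in females the numbers cannot be told apart from exposure. What the numbers stand for is not stated.

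The stretches around the starts of Grk3, Gnai1 and Gnao1 are shown because these members had the smallest p-values between fentanyl and saline over both sexes. They were also correlated across libraries, Gnao1 negatively with Grk3 and Gnai1. RefSeq's promoter table (assembly GRCr8, 250 bases before to 50 after the start) held 6 of the 10 genes. Capitals mark the GC box GGGCGG on either strand, a sequence bound by Sp-family factors. The windows are chr12:49285078-49285377 (plus strand) for Grk3, chr4:17705811-17706110 (plus strand) for Gnai1 and chr19:11198388-11198687 (minus strand) for Gnao1.
Grk3: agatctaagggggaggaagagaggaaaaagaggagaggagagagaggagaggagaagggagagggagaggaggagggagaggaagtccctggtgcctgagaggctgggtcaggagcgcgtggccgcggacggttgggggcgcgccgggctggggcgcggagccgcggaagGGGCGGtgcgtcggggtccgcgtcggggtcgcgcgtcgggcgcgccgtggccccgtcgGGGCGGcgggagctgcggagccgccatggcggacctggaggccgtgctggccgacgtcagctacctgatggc
Gnai1: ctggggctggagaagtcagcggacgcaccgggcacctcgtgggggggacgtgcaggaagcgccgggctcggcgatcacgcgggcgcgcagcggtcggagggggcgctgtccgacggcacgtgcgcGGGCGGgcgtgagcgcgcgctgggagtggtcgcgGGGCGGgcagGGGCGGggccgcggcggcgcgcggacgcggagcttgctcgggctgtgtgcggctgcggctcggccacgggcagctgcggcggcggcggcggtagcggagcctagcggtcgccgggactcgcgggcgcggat
Gnao1: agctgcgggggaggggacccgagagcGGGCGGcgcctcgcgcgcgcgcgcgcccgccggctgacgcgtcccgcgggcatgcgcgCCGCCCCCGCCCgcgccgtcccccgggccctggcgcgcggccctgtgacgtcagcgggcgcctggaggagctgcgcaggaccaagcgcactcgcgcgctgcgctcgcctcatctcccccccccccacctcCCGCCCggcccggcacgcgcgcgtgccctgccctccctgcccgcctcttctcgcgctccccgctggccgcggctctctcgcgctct

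All 3 are rich in CpG dinucleotides, with 35 in Grk3, 56 in Gnai1 and 54 in Gnao1 against a median of 7 over 33469 promoters of that length. The GC box occurred 2 times in Grk3, 3 times in Gnai1 and 4 times in Gnao1, and 33.1% of all promoters held it at least once on either strand. Grk2 held 10 and Grk6 held 6, and none was found in Grk5. The cAMP response element TGACGTCA was found in Gnao1 alone among the 6 and in 1.83% of all promoters. The letters TATAAA were in none of the 6 and in 14.2% of all promoters. These matches describe the letters only.

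Over both sexes, none of the 10 genes passed the threshold between 8 fentanyl and 8 saline animals (adjusted p under 0.05, quasi-likelihood test of edgeR, Benjamini-Hochberg over all genes tested), where 0.0784% of all genes did. At an unadjusted p under 0.05 there were 2, Gnai1 and Gnao1, against 7.27% of all genes, and neither DESeq2 nor limma voom called any of the 10. Of the 10 log2 fold changes 7 were below 0, with a median of -0.09 against -0.009 over all genes tested. No member was without overlap between the 8 fentanyl and 8 saline libraries, as 0.101% of all genes were.

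**Figure D1:**
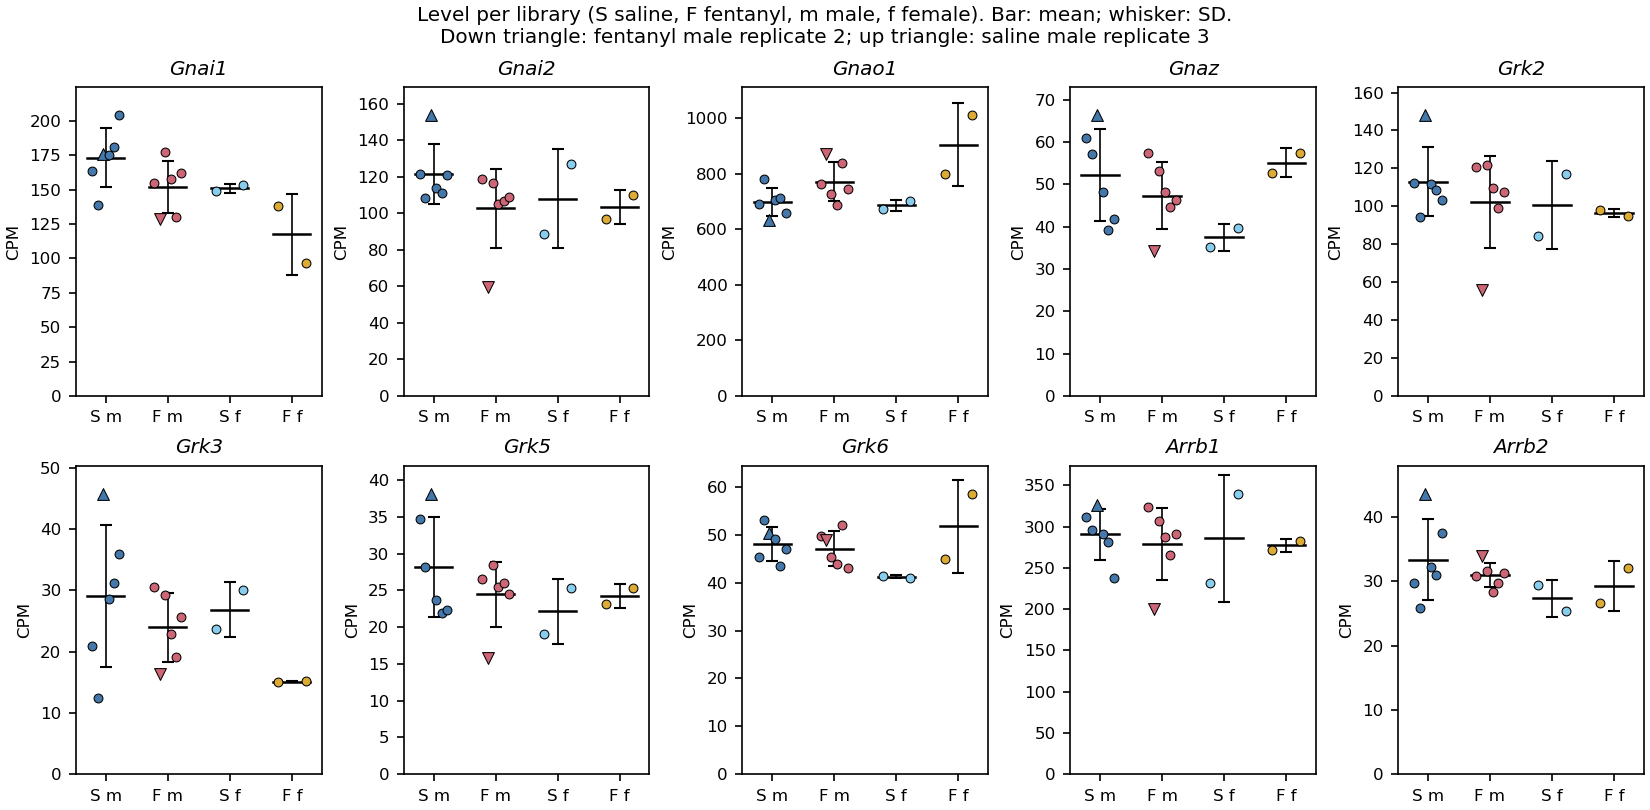
Level of each gene in CPM in every library (1 point each, y axis from 0), by exposure and sex, with the group mean and SD. Over all 8 fentanyl and 8 saline animals the exposures overlap in every panel. Among the 2 and 2 females they do not for Gnai1, Gnao1, Gnaz, Grk3 and Grk6, nor for 48.8% of all genes. Gnai2 and Grk2 lie lowest in fentanyl male replicate 2, at 59.7 and 56.1 CPM, and highest in saline male replicate 3, at 154 and 148 CPM.

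Among the alpha subunits, Gnao1, which encodes the Go alpha subunit abundant in neurons, had 688 CPM in the lowest fentanyl library, a median of 780 and 1010 CPM in the highest. In saline the lowest was 634, the median 696 and the highest 779 CPM. The highest fentanyl libraries lay above all saline libraries, but the groups overlapped between 688 and 779 CPM. The log2 fold change was 0.21 ± 0.08 (SE; 95% interval 0.03 to 0.38; adjusted p = 0.605 by edgeR). It ranged from 0.16 without fentanyl female replicate 2, the highest library, to 0.24 without fentanyl male replicate 4.

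Gnai1, a Gi alpha subunit, ran the other way. Its level was 96.4 CPM at the lowest, 147 at the median and 177 CPM at the highest in fentanyl, and 139, 170 and 204 CPM in saline. The lowest library was fentanyl female replicate 2, the same animal in which Gnao1 was highest. The log2 fold change was -0.23 ± 0.10 (95% interval -0.44 to -0.03; adjusted p = 0.637 by edgeR).

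The other Gi alpha subunit, Gnai2, which is expressed in many cell types, had a mean of 103 ± 18.8 CPM in fentanyl and 118 ± 18.5 CPM in saline (SD, n = 8 each). Its log2 fold change of -0.20 ± 0.13 went to -0.10 without fentanyl male replicate 2. Gnaz, the Gz alpha subunit, which lacks the pertussis toxin site of the others, had 49.3 ± 7.68 and 48.6 ± 11.5 CPM (SD, n = 8 each), and its log2 fold change was 0.03 ± 0.14 with a 95% interval from -0.26 to 0.32.

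Grk3 had the estimate farthest from 0 of the 10. This kinase and Grk2 form the subfamily that free beta-gamma dimers recruit to the membrane. In fentanyl the lowest library had 15.1 CPM, the median was 20.9 and the highest 30.6 CPM, and in saline the values were 12.5, 29.3 and 45.8 CPM. The saline libraries spanned the whole fentanyl range, since saline male replicate 2 was the lowest of all 16 and saline male replicate 3 the highest. The log2 fold change was -0.42 ± 0.21 (95% interval -0.87 to 0.03; adjusted p = 0.725 by edgeR). Its coefficient of variation over the 16 libraries was 35.0%, above that of 93.3% of the 3130 genes within 1.5-fold of its mean level, whose median was 14.3%.

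Whether Grk3 passed depended on which saline males were used. Without library numbers 1 and 2 it passed, at -0.64 ± 0.15 (adjusted p = 0.0203 by edgeR), in a fit that called 6.90% of all genes. Without numbers 9 to 12 it was -0.05 ± 0.28, in a fit that called 0.0229% of all genes. With the mean levels of the striatal and the myelin markers as covariates it was 0.18 ± 0.15 (adjusted p = 0.893), and 0.0616% of all genes passed.

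**Figure D2:**
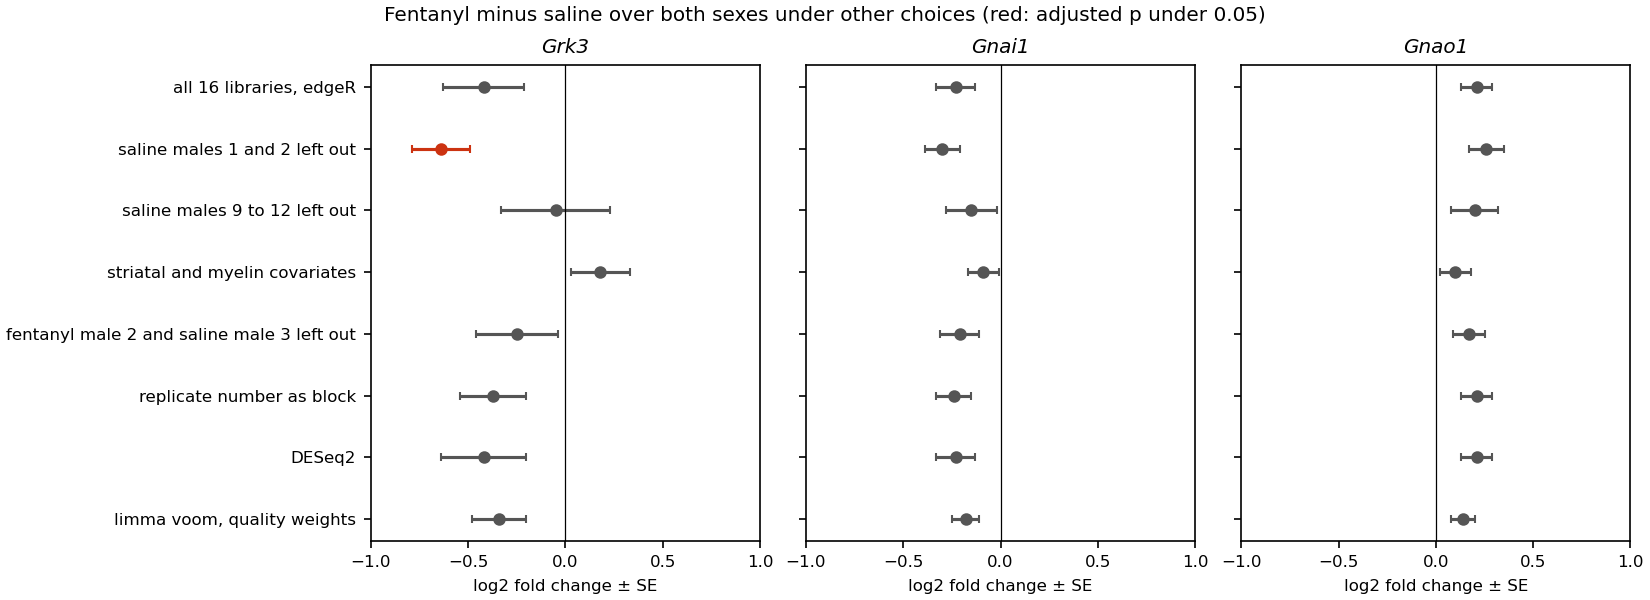
Log2 fold change (fentanyl minus saline, both sexes) of Grk3, Gnai1 and Gnao1 with SE under 8 choices of libraries, covariates and tool; red marks an adjusted p under 0.05. Grk3 moves from -0.64 to 0.18, while Gnai1 stays below 0 and Gnao1 above 0 in all 8.

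Grk2, a kinase that phosphorylates active opioid receptors, had 56.1 CPM in the lowest fentanyl library, a median of 103 and 122 CPM in the highest, and 84.1, 110 and 148 CPM in saline. Its log2 fold change was -0.12 ± 0.14, and -0.02 without fentanyl male replicate 2. Grk5 and Grk6 belong to the subfamily that binds the membrane by itself. Grk5 had 24.4 ± 3.80 CPM in fentanyl and 26.7 ± 6.63 CPM in saline (SD, n = 8 each; log2 fold change -0.12 ± 0.14). Grk6 had the lowest coefficient of variation of the 10 over all libraries, and had 48.3 ± 5.21 and 46.4 ± 4.33 CPM (log2 fold change 0.06 ± 0.08).

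The beta-arrestins bind phosphorylated receptors, and neither gene passed. Arrb1 had 279 ± 36.6 CPM in fentanyl and 289 ± 38.9 CPM in saline (SD, n = 8 each), and its log2 fold change was -0.05 ± 0.10 with a 95% interval from -0.27 to 0.17. Arrb2 had 30.6 ± 2.30 and 31.9 ± 6.10 CPM, a log2 fold change of -0.06 ± 0.10 with an interval from -0.26 to 0.15. As folds, the intervals ran from 0.827 to 1.12 for Arrb1 and from 0.835 to 1.11 for Arrb2. Levels are compared here within a gene only, since read counts are not divided by transcript length.

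In males alone, 6 against 6, none of the 10 passed (0.0392% of all genes did), and none had an unadjusted p under 0.05, against 4.13% of all genes. DESeq2 and limma voom called none of the 10 either. Estimates lay between -0.28 ± 0.24 for Grk3 and 0.15 ± 0.09 for Gnao1, and 9 of 10 were below 0. Over all genes tested the median was -0.005. The 9 are not independent: Gnai2, Gnaz, Grk2, Grk5 and Arrb1 were all lowest in the same library, fentanyl male replicate 2. Gnao1 ran from 688 to 872 CPM with a median of 752 in the fentanyl males, and from 634 to 779 CPM with a median of 699 in the saline males. Grk3 had a mean of 23.9 ± 5.61 CPM (SD) in fentanyl males. This mean lay between saline males 1 and 2, at 21.0 and 12.5 CPM, and saline males 9 to 12, at 28.5 to 45.8 CPM. The single fentanyl males ran from 16.3 to 30.6 CPM for Grk3 and overlapped both sets. Against numbers 1 and 2 alone its log2 fold change was 0.52 ± 0.25, and against 9 to 12 alone -0.56 ± 0.17, neither past the threshold, where 5.47% and 0.400% of all genes were.

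In the 2 fentanyl and 2 saline females, whose test borrows its spread from the males too, no gene of the table passed by edgeR or limma voom, 20 passed by DESeq2, and 65 (0.387%) passed by edgeR with the 4 female libraries fitted alone, none of them among the 10. Of the members 3 had an unadjusted p under 0.05, Gnao1, Gnaz and Grk6, where 14.3% of all genes did; DESeq2 and limma voom called none of the 10. Gnaz had 52.7 and 57.6 CPM in the fentanyl females and 35.2 and 39.8 CPM in the saline females (log2 fold change 0.56 ± 0.24, adjusted p = 0.339 by edgeR). Grk6 had 44.9 and 58.6 CPM against 41.5 and 41.0 CPM (0.33 ± 0.14). Grk3 had 15.1 CPM in both fentanyl females and 23.7 and 30.0 CPM in the saline females (-0.83 ± 0.42). The pairs did not overlap for these genes, for Gnai1 and Gnao1, nor for 48.8% of all genes. Summed striatal markers were 10219 and 14578 CPM in the fentanyl females and 6324 and 7277 CPM in the saline females, and summed myelin markers 21294 and 9233 against 29122 and 28639 CPM. Their part in the result was not tested. Library numbers, 1 and 2 after fentanyl and 10 and 11 after saline, cannot be told apart from exposure in these females.

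The difference in exposure effect between the sexes passed for none of the 10 after adjustment (females minus males, edgeR; 0 of all genes passed, against 4 by DESeq2 and 0 by limma voom, and none of the 10 by any). At an unadjusted p under 0.05 there were 2 of the 10, against 8.23% of all genes. These were Gnaz, with a difference of 0.70 ± 0.28 in log2 fold change (adjusted p = 0.570), and Grk6, with 0.35 ± 0.16 (adjusted p = 0.570). Between females and males over both exposures none passed either (0.0560% of all genes did; none by DESeq2 or limma voom), and Gnai1 alone had an unadjusted p under 0.05 (log2 fold change -0.28 ± 0.11, female minus male; 2.52% of all genes).

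**Figure D3:**
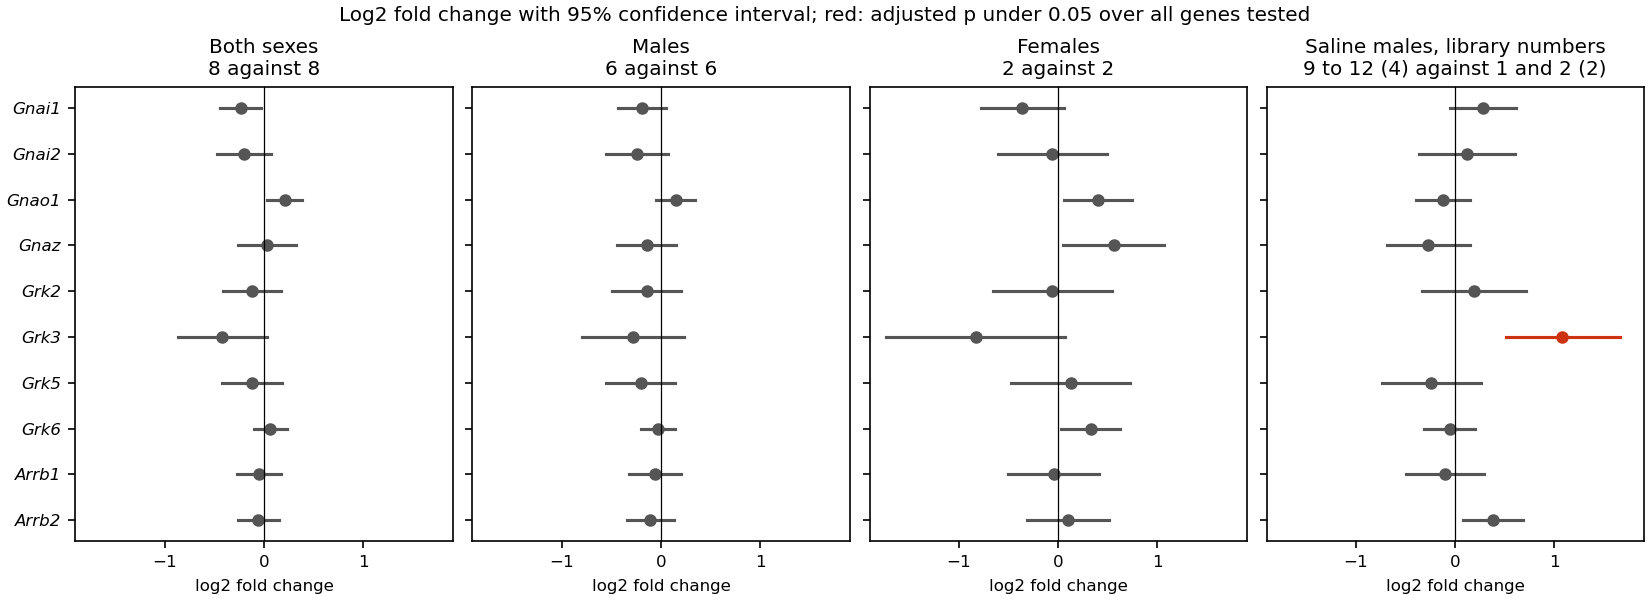
Log2 fold change of each gene with its 95% interval (x axis, the same range in each panel) for fentanyl against saline in both sexes, males and females, and between the library number sets of saline males. In the first 3 panels no gene passes, and in the last Grk3, at 1.08, does.

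Within the saline males, Grk3 was the member that passed by edgeR between the library number sets. It had 45.8, 28.5, 31.1 and 35.9 CPM in replicates 3 to 6 and 21.0 and 12.5 CPM in replicates 1 and 2. The sets did not overlap for Grk3, nor for Gnai1 and Arrb2, nor for 44.8% of all genes. The log2 fold change of Grk3 was 1.08 ± 0.27 (numbers 9 to 12 minus 1 and 2, 95% interval 0.51 to 1.66, adjusted p = 0.0139 by edgeR). So 1 of 10 members passed, where 17.9% of all genes did, and 2 of 10 had an unadjusted p under 0.05 (Grk3 and Arrb2), against 31.6%. DESeq2 called 1, with 21.4% of all genes, and limma voom 2, with 31.9%, the second being Gnaz (-0.37, adjusted p = 0.0431). Without saline male replicate 2 it was 0.75 and no longer passed (adjusted p = 0.205), in a fit that called 1.09% of all genes, and with striatal and myelin markers as covariates it was 0.62 ± 0.37. Arrb2 came next, at 0.38 ± 0.14 (adjusted p = 0.0773). Beside this, the summed striatal markers were 3024 to 5197 CPM in numbers 9 to 12 and 7975 and 11488 CPM in numbers 1 and 2, and the summed myelin markers 12962 to 37250 CPM against 8387 and 11145 CPM. In bulk tissue fewer cells of a type and less RNA per cell cannot be told apart.

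Across the 16 libraries the 10 genes did not vary independently. Of 45 pairs, 17 had an adjusted p under 0.05 (100000 permutations, two-sided, Benjamini-Hochberg over the 45), 15 with a positive and 2 with a negative correlation of log2 CPM. Gnai2 and Grk2 were the closest pair, with Pearson's r = 0.95 (permutation p = 2.000e-05, adjusted p = 4.500e-04) and Spearman's rho = 0.81 (permutation p = 2.800e-04). Without the 2 libraries farthest from the median of Gnai2, fentanyl male replicate 2 and saline male replicate 3, r was 0.78, and it was 0.97 within the fentanyl and 0.95 within the saline animals (n = 8 each; a description at this size). Grk2 and Arrb1 had r = 0.86 (adjusted p = 6.000e-04 by permutation) and rho = 0.81, with r = 0.75 without the same libraries.

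Gnai1 and Gnao1 were opposed, with r = -0.88 (permutation p = 7.000e-05, adjusted p = 7.875e-04) and rho = -0.71 (permutation p = 0.00289). Without fentanyl female replicate 2 and saline male replicate 6, the farthest for Gnai1, r was -0.76, and it was -0.95 within fentanyl and -0.57 within saline animals. Grk3 went with Gnai1 (r = 0.77, rho = 0.79, adjusted p = 0.00165 by permutation) and against Gnao1 (r = -0.73, rho = -0.66, adjusted p = 0.00369 by permutation). The beta-arrestins showed no such relation to each other (r = -0.16, rho = -0.13, permutation p = 0.536). All values share each library's depth, scaling and tissue make-up.

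**Figure D4:**
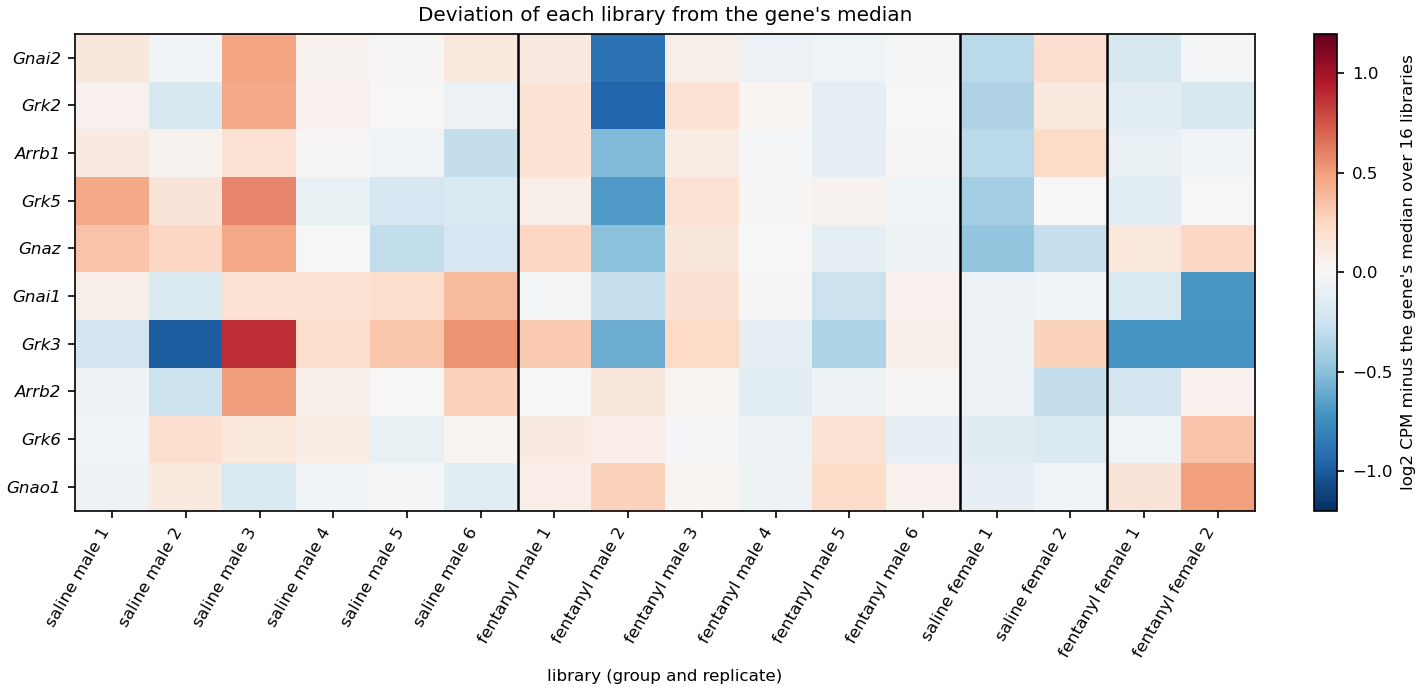
Deviation of each library (columns, grouped by exposure and sex) from each gene's median over 16 libraries on the log2 scale (colour). Gnai2, Grk2, Arrb1, Grk5 and Gnaz are all low in fentanyl male replicate 2, and Gnao1 is highest in fentanyl female replicate 2, where Gnai1 is lowest.

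The libraries that stood apart did so for several members at once. Fentanyl male replicate 2 was the lowest of all 16 for 5 genes, Gnai2, Gnaz, Grk2, Grk5 and Arrb1, and for none the highest. Saline male replicate 3 was the highest of all 16 for 6 genes, among them Gnai2, Grk2, Grk3 and Arrb2, and the lowest for Gnao1. These libraries are also the ends of the range of the mitochondrial share, at 17.7% and 8.44%. They were the lowest and highest in mean log2 CPM of cortical and basolateral glutamatergic markers (2.61 and 4.92) and of central amygdala markers (4.10 and 5.58). For endothelial and mural markers they were the highest and lowest (4.52 and 3.44). Fentanyl male replicate 2 also had the highest summed myelin markers, 38543 CPM. The part of these differences in the member values was not tested.

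Members were set against the mean log2 CPM of the tested genes of 11 lists of cell type markers, the mitochondrial share and the total count, 130 relations in all, of which 37 had an adjusted p under 0.05 (100000 permutations). Grk3 was lower where striatal markers were higher, with r = -0.88 and rho = -0.87 (permutation p = 3.000e-05 for rho, adjusted p = 0.00195). It was -0.84 without saline male replicates 3 and 6, the farthest, and -0.75 within fentanyl and -0.92 within saline animals. Gnai1 had r = -0.83 and rho = -0.79 with the same list (adjusted p = 0.0013 by permutation for r), and Gnao1 r = 0.79 and rho = 0.80 (adjusted p = 0.00325 by permutation for r). Both kept their sign within each exposure, at -0.93 and -0.84 for Gnai1 and 0.89 and 0.81 for Gnao1 in fentanyl and saline animals. Without saline male replicates 3 and 6 they were -0.83 and 0.76.

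Grk2 followed the mitochondrial share instead, with r = -0.93 and rho = -0.83 (permutation p = 3.000e-05 and 1.900e-04, adjusted p = 0.0013 and 0.00617). Without fentanyl male replicate 2 and saline female replicate 1, the farthest, r was -0.74, and it was -0.98 within fentanyl and -0.91 within saline animals. Gnai2 (r = -0.90, rho = -0.63) and Arrb1 (r = -0.84, rho = -0.74) had adjusted p = 0.00156 and 0.00195 by permutation for r, and r was -0.56 and -0.58 without those libraries. Grk5 had r = -0.75 and rho = -0.63, and r was -0.41 without them. The relations of Grk2, Gnai2, Arrb1 and Grk5 to the mitochondrial share were thus all weaker without those libraries. Gnaz was lower where myelin markers were higher (r = -0.82, rho = -0.88, adjusted p = 0.00186 by permutation for r; -0.83 without fentanyl female replicate 2 and saline male replicate 1) and higher where central amygdala markers were higher (r = 0.82, rho = 0.84, adjusted p = 0.00156 by permutation for r; 0.74 without saline male replicates 1 and 3). Gnaz kept these signs within fentanyl and within saline animals (-0.69 and -0.88 for myelin, 0.82 and 0.83 for the central amygdala list). The central amygdala list shares Scn4b with the striatal list, and its genes did not vary as one. In saline males 9 to 12 against 1 and 2, Cyp26b1 had means of 29.8 and 4.94 CPM, while Wfs1 had 222 and 456 CPM. Its mean is thus no plain measure of central amygdala content.

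**Figure D5:**
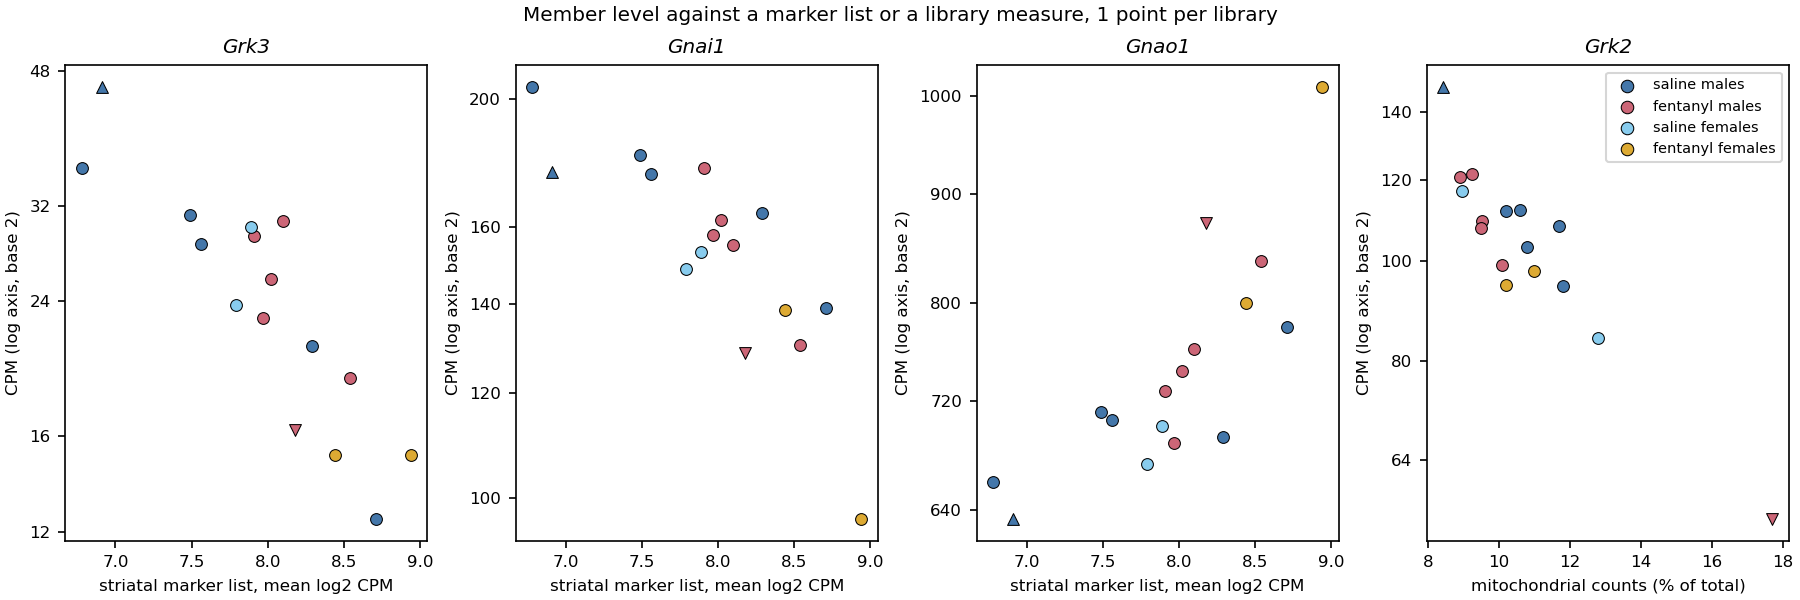
Level of Grk3, Gnai1 and Gnao1 (CPM, log axis) against the mean log2 CPM of the 19 striatal marker genes that passed the filter on low counts, and of Grk2 against the mitochondrial share, 1 point per library, coloured by group, with triangles for fentanyl male replicate 2 (down) and saline male replicate 3 (up). Grk3 and Gnai1 fall and Gnao1 rises along the striatal axis, and the lowest Grk2 point, 56.1 CPM, is the library with a share of 17.7%.

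For each member the genes most like it were taken as those with the highest Pearson r of log2 CPM over the 16 libraries, among 10055 others with a mean of at least 10 CPM and a named symbol. Gnai1 was closest to Tsc22d2 (0.914) and Maged2 (0.912), Gnai2 to Apba1 (0.955) and Grk2 (0.954), Gnao1 to Them6 (0.960) and Abcb9 (0.943), and Gnaz to Pnma8b (0.975) and Maged1 (0.970). Grk2 was closest to Kif3c (0.973), a kinesin, and Ipo9 (0.964), an importin. Grk3 was closest to Nynrin (0.966) and Clcn5 (0.952), a chloride transporter, Grk5 to Ocrl (0.939) and Ptprn2 (0.937), and Grk6 to Cdipt (0.893) and Mrpl38 (0.880). Arrb1 was closest to Synrg (0.962) and Zyg11b (0.952), and Arrb2 to Ssh3 (0.907) and Olfm1 (0.891). Only Gnai2 had another of the 10 genes among its 2 closest. These values are descriptions, since the genes were picked for them.

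The rest of the pathway was described by 9 lists, with 143 tested genes in all, none of which passed between fentanyl and saline over both sexes by edgeR, where 0.0784% of all genes did. DESeq2 called 1 (0.487% of all genes), limma voom 20 (5.63%), edgeR with surrogate variables 10 (1.67%) and edgeR without saline males 1 and 2 called 21 (6.90%). Without saline male replicate 2 alone edgeR called 1 (0.163%). At an unadjusted p under 0.05 there were 12 of 143, against 7.27% of all genes, and list medians lay between -0.12 and 0.18 on the log2 scale. The smallest p in each list is named. Among regulators of G protein signalling (17 tested, 11 above 0), Rgs4, which speeds GTP hydrolysis on Gi and Gq alpha subunits, had 254 CPM in fentanyl and 160 CPM in saline (0.65 ± 0.14, adjusted p = 0.137 by edgeR). Among chaperones, exchange factors and GoLoco proteins of alpha subunits (14 tested, 8 above 0), Gprin3, which binds activated alpha subunits, had 66.9 and 47.9 CPM (0.53 ± 0.16, adjusted p = 0.413).

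Of Gi/o-coupled receptors 36 were tested, 19 above and 17 below 0, and Grm8, a metabotropic glutamate receptor, had the smallest p (0.48 ± 0.17, adjusted p = 0.538 by edgeR). Of 10 other alpha subunits 5 lay above and 5 below 0. Gnal, the striatal and olfactory stimulatory subunit, had 454 CPM in fentanyl and 345 CPM in saline (0.38 ± 0.21). Of 5 beta subunits 4 lay above 0, with Gnb2 at 0.27 ± 0.13, and of 11 gamma subunits 7 lay below, with Gng8 at -0.43 ± 0.27.

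All 8 tested genes among the other receptor kinases, visual arrestins and alpha-arrestins had an estimate below 0, with a median of -0.12, and Arrdc3, an alpha-arrestin, stood at -0.27 ± 0.22 (adjusted p = 0.819 by edgeR). Among 16 effectors Plcb1, a phospholipase C, was at 0.35 ± 0.16. Among 26 arrestin partners and endocytosis genes Nsf, an ATPase that binds beta-arrestin, was at 0.24 ± 0.11.

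Between the library number sets of saline males, by contrast, 42 of the 143 passed, 14 higher and 28 lower in numbers 9 to 12, where 17.9% of all genes did. Without saline male replicate 2 the count was 1 (1.09% of all genes), without replicate 1 it was 18 (6.92%) and without replicate 6 it was 27 (10.7%). Drd2, the D2 dopamine receptor of striatal neurons, had 86.1 CPM in numbers 9 to 12 and 246 CPM in 1 and 2 (-1.51 ± 0.27, adjusted p = 0.00322 by edgeR). Gng7, a gamma subunit of striatal neurons, stood at -1.28 ± 0.23 and its partner Gnal at -1.05 ± 0.18. Higher in numbers 9 to 12 were Txnip, an alpha-arrestin (1.61 ± 0.38), Gng8 (1.33 ± 0.33), Gna12 (1.08 ± 0.27), Arrdc3 (1.05 ± 0.27), Adcy6, an adenylyl cyclase that Gi inhibits (0.85 ± 0.16), and Dnm2, a dynamin (0.47 ± 0.14). Rgs2 (-1.09 ± 0.22), Rgs20 (-1.08 ± 0.16), Htr1d (-0.84 ± 0.18), Rap1gap (-0.83 ± 0.23), Plcb1 (-0.79 ± 0.17) and Ric8b (-0.72 ± 0.14) were lower. No beta subunit passed, with Gnb4 at -0.61 ± 0.22. With the striatal and myelin markers as covariates none of the 143 passed between the sets, and 1 of all genes did.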

How the data were processed

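Poly(A) RNA-seq libraries of central amygdala from 16 rats were analysed from the whole-number read counts per gene that the authors deposited. The submitters' processing notes name Trimmomatic, STAR, HTSeq, DESeq2 and the build rn7; for versions, annotation and strand setting the sources used here give nothing. Of 33294 genes, the 17856 that passed edgeR's filter on low counts over the 4 groups were tested (R 4.3.3, edgeR 4.0.16, TMM factors, robust quasi-likelihood fit over all libraries with terms for exposure and sex), with Benjamini-Hochberg adjustment over all of them and a threshold of 0.05. Males, females, their difference, the sexes and the saline library number sets were contrasts of the same kind of fit. Log2 CPM for correlations used a prior count of 2. Fits were tested on simulated data. Over both sexes 64.2% of 1.5-fold and 97.0% of 4-fold changes were recovered, with 4 false calls. Between the saline sets 17.9% and 97.0% were recovered, with 6 false calls. Changes below 1.5-fold were not simulated. No 2 libraries agreed within sampling noise (smallest chi-square per gene 4.08 over 120 pairs, genes with 20 or more counts). Alternatives used DESeq2 1.42.0, limma 3.58.1 voom with quality weights, sva 3.50.0, other filters, factors, covariates and left-out libraries.

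The members and all gene lists were chosen with earlier results of these data known. Named genes are the 10 members, the gene with the smallest p in each of 9 pathway lists (for the saline sets up to 2 past the threshold), and the 2 genes most alike to each member. A gene that this rule names for the saline sets is not reported here. Of 325 list entries, 3 had no match and 2 matched through an older symbol. Promoter letters came from RefSeq's GRCr8 table; no coordinates were converted to rn7.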

Additional observations from a re-analysis of the deposited data

Results flagged for a closer look

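Within groups of 6 males, 5 of 20 sets of values held a library whose gap to its nearest neighbour, divided by the range, was above Dixon's critical value of 0.625, which chance exceeds in about 1 of 20 groups. The 5 are not independent, since they come from 2 libraries. In fentanyl male replicate 2, Gnai2 was 59.7 CPM, with the next library at 105 CPM. Grk2 was 56.1 CPM there, with the next at 99.2 CPM, and Grk5 was 15.8 CPM, with the next at 24.5 CPM. In saline male replicate 3, Gnai2 was 154 CPM, with the next library at 122 CPM, and Grk2 was 148 CPM, with the next at 112 CPM. The first library had the highest mitochondrial share of the 16, 17.7%, and the second the lowest, 8.44%. They were also the lowest and highest in mean log2 CPM of cortical and basolateral glutamatergic markers, at 2.61 and 4.92. The part of these differences in the values was not tested.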

How the results depend on the processing

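Of 1370 values of 60 fold changes under other settings, 1296 kept direction and side of the threshold. Of these, 923 came from leaving out 1 library, often one outside the groups compared, which can move an estimate little. The remaining 373 came from other settings, under which 34 values reversed in sign. For every fold change but that of Grk3 between the saline sets, the side kept was that of not passing. Omitting fentanyl male replicate 2 and saline male replicate 3 together, added after seeing the data, gave Grk2 0.04, Grk5 0.04 and Arrb1 0.03 over both sexes, and Gnaz 0.01, Grk2 0.07, Grk5 0.00 and Arrb1 0.06 in males, all opposite in sign. With limma voom the sign turned for Grk2 (0.00), Grk5 (0.08) and Arrb1 (0.05) over both sexes, Gnaz (0.03), Grk5 (0.04) and Arrb1 (0.02) in males, and Grk2 (-0.02) and Arrb1 (-0.04) for the sex difference in effect, and 2 members passed between the saline sets. Without saline males 1 and 2, 1 member passed over both sexes (Grk3, -0.64); without 9 to 12, Arrb2 was 0.13 over both sexes and 0.15 in males, and Grk3 0.52 in males. With striatal and myelin covariates, Grk2 was 0.08, Grk3 0.18, Grk5 0.02 and Arrb2 0.17 over both sexes, and Gnai2 0.02, Gnaz 0.10, Grk2 0.14, Grk3 0.35, Grk5 0.10, Arrb1 0.06 and Arrb2 0.14 in males. The same covariates between the saline sets, added after seeing the data, left 0 members past the threshold, with Gnai1 at -0.47, Gnao1 0.31, Grk3 0.62, Grk6 0.41 and Arrb1 0.19. With surrogate variables Arrb2 was 0.02. The cause of these changes was not tested.

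Leaving out 1 library at a time, the ranges that crossed 0 were -0.04 to 0.11 for Gnaz, -0.10 to 0.01 for Arrb1, 0.00 to 0.09 for Grk6 and -0.10 to 0.02 for Arrb2 over both sexes, and -0.11 to 0.03 for Arrb1 and -0.06 to 0.00 for Grk6 in males. In females they were -0.30 to 0.21 for Gnai2, -0.04 to 0.23 for Arrb2, -0.06 to 0.34 for Grk5, -0.28 to 0.19 for Grk2 and -0.29 to 0.26 for Arrb1. For the sex difference in effect they were -0.14 to 0.33 for Grk2, -0.24 to 0.31 for Arrb1, -0.46 to 0.07 for Gnai1 and -0.06 to 0.46 for Gnai2, and between the sexes -0.12 to 0.08 for Arrb1, -0.15 to 0.03 for Gnai2, -0.23 to 0.02 for Gnaz and -0.16 to 0.02 for Grk6. Between the saline sets 0 to 1 members passed, Grk3 ran from 0.75 to 1.5 and Grk6 from -0.17 to 0.07.

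The count of all genes higher and lower moved most: over both sexes 9 and 5 became 52 and 35 with DESeq2, 663 and 343 with limma voom, 207 and 91 with surrogate variables, 752 and 474 without saline males 1 and 2, 1 and 3 without 9 to 12, and 21 and 8 without saline male replicate 2. In males 7 and 0 became 28 and 15 with DESeq2, 50 and 34 with limma voom, 57 and 14 without saline males 1 and 2 and 582 and 373 without 9 to 12, with 4 to 9 in all when 1 library was left out. In females 0 became 10 and 10 with DESeq2, 22 and 43 with female libraries alone, and up to 5 in all with 1 library left out (without saline male replicate 5). For the sex difference in effect 0 became 3 and 1 with DESeq2 and up to 5 in all with 1 library left out (the same library). Between the saline sets 1724 and 1477 became 2884 and 2817 with limma voom, 0 and 1 with covariates, 65 and 128 without saline male replicate 2, 595 and 640 without replicate 1, and 1035 and 859 without replicate 6. Correlations of same-numbered deviations from the group mean ran from -0.17 to 0.21. Only male replicate 3, at 0.16, was closest to its own number. With 2 females per group the 2 female values, both -0.17, are equal by construction. Whether replicate numbers pair the animals cannot be decided from these values. With the replicate number as a block 2 genes were higher and 0 lower over both sexes and 3 and 0 in males, 0 members passed in the 4 comparisons fitted, and Grk3 was -0.37 over both sexes.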
